A study of Mus musculus with 6 samples.

Results

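Cluster 1 held the Il1b-rich mature neutrophils among CD11b+ bone marrow cells of the mouse femur and mandible. Its members were the cells that the deposited annotation placed in cluster 1 of its clustering at resolution 0.1, in all 6 libraries. There were 15824 such cells of 69776 cells kept by the authors, compared below mainly with 9629 cells of cluster 2 and 7914 cells of cluster 3, which also carried neutrophil genes.

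The study asked how myeloid cells differ between these skeletal sites. All mice were C57Bl/6 by the labels (C57Bl/6J in the study's methods), 2 months old and untreated as far as the labels say. Marrow was flushed from the bones and CD11b+ cells (CD11b is an integrin subunit of myeloid cells) were picked with magnetic beads before droplet capture and 3' RNA sequencing. The femur group had 3 samples, 1 female (replicate 1) and 2 male, and the mandible group had 3 male samples. The sample labels describe marrow of femurs and tibiae for the femur group, while the study's methods name femurs. The molars were extracted from each mandible and their sockets flushed, so the mandible suspensions could also carry cells or RNA from around the teeth. How many mice made up a sample was not given in the sources used here, and p-values measure only the spread between these samples.

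Neutrophils are short-lived phagocytes that mature in the marrow, loading primary, then secondary and gelatinase granules with antimicrobial and matrix-degrading proteins before they leave for the blood. Mature cells stop making most granule mRNA and gain receptors for cytokines and chemokines. Interleukin-1 beta, the product of Il1b, is made as a precursor and cleaved by inflammasome caspases, and Il1r2 encodes the decoy receptor that binds it without signalling.

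Cluster 1 held 2196, 3279 and 5801 cells in femur replicates 1 to 3 and 1946, 1304 and 1298 cells in the mandible replicates. These were 21.4, 28.2 and 25.4% of the femur samples' cells and 22.6, 14.9 and 16.7% of the mandible samples' cells, given as values only. Median UMIs (unique molecular identifiers, 1 per captured mRNA molecule) per cell ran from 3827 to 6154, and the UMIs summed over the cluster from 6654475 to 26521651 per sample. The deposited ImmGen label was neutrophil for 99.9% or more of the cells in every sample. The other deposited label, MouseRNA, called 69.1 to 80.7% of the cells granulocytes and 18.6 to 30.5% monocytes, so the references differed on a part of the cluster. Between 96.3 and 98.2% of the cells were called G1. Between 15 and 70 cell barcodes were shared by any pair of libraries, of which 0 to 5 were in cluster 1 in both.

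The 5 marker genes given for the cluster were at their highest in cluster 1 in 6 of 6 samples among the 9 clusters, when UMIs were summed over a cluster's cells and scaled to the cluster's total in that sample (CPM, the usual depth-scaled count). Il1b had a mean of 1902 CPM in cluster 1 (SD 819, n = 6), against 739 CPM in cluster 2, 63.5 CPM in cluster 3 and 1007 CPM in cluster 7. Il1r2 averaged 2130 CPM and Csf3r, the receptor for granulocyte colony-stimulating factor, 2659 CPM. Srgn, the proteoglycan core protein of granules, averaged 5908 CPM and Ifitm1, an interferon-inducible membrane protein, 846 CPM. Since clusters were built from these genes' expression, the comparison between clusters is a description and was not tested.

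**Figure D1:**
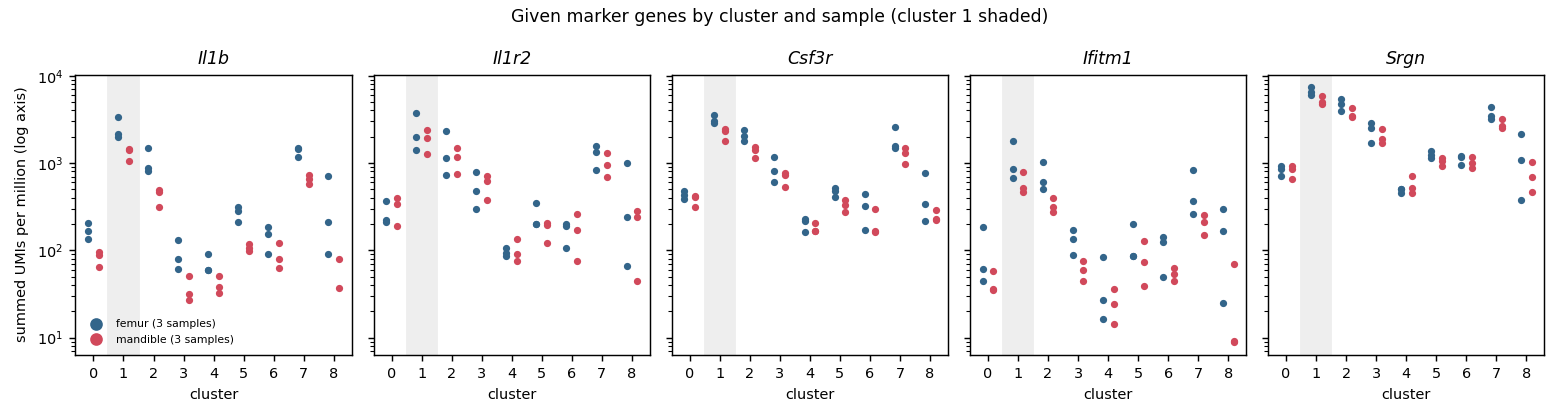
Level in CPM (log axis) of the 5 given marker genes in each of the 9 clusters (horizontal axis), with a point per sample, femur in blue and mandible in red. In every sample the point for cluster 1 (shaded) is the highest of that sample, for all 5 genes; a sample at 0 has no point on the log axis.

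Among clusters 0 to 5, the level of further genes was highest in cluster 1. Among genes at a mean of 100 CPM or more, ratios were taken to the next highest of clusters 0 to 5. Fgl2, a secreted immune regulator, had the largest, at 2.72 (328 against 120 CPM in cluster 2). Il1b followed at 2.58. Oasl1, an antiviral regulator, stood at 2.39, Isg15, a ubiquitin-like protein induced by interferon, at 2.37, and Ptgs2, the inducible prostaglandin synthase, at 2.35. Rsad2, which encodes the antiviral enzyme viperin, had a ratio of 2.25. Prr5l, a binding partner of the mTORC2 kinase complex, stood at 2.14 and Cass4, an adhesion scaffold protein, at 2.13. Ccl4, a chemokine, had a ratio of 2.11, Cd80, a T cell costimulatory ligand, 2.03 and Socs3, a feedback inhibitor of cytokine signalling, 1.86. Each of these genes was higher in cluster 1 than in cluster 2 in 6 of 6 samples. Cluster 7 was below cluster 1 in all of these means but above the next highest of clusters 0 to 5 for most. It held Fgl2 at 181, Il1b at 1007, Ptgs2 at 389, Cass4 at 162, Prr5l at 81.6 and Cd80 at 67.0 CPM. Isg15 (66.1 CPM) and Socs3 (61.3 CPM) were not above it there. Outside clusters 0 to 5, the means of Rsad2 (828 against 272 CPM) and Isg15 (307 against 162 CPM) were higher in cluster 8, which carried the erythroid markers, than in cluster 1.

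Marker lists of other cell types were summed in cluster 1 to show how much of their RNA it held. The 10 B cell markers summed to 83.6 to 163 CPM in cluster 1, against 12095 CPM or more in cluster 6, where they define the cells. The 10 monocyte markers summed to 469 to 555 CPM in the femur samples and 601 to 738 CPM in the mandible samples, so that these ranges did not overlap, against 6249 CPM or more in cluster 5. The 7 macrophage markers summed to 82.0 to 122 CPM in the femur samples and 66.9 to 87.0 CPM in the mandible samples, against 480 to 3079 CPM in cluster 5. Dendritic cell markers (8 genes, 16.5 to 23.7 CPM in the femur and 11.8 to 14.7 CPM in the mandible) and eosinophil, basophil or mast cell markers (9 genes, 13.2 to 15.8 against 6.61 to 9.38 CPM) did not overlap either, and were lower in the mandible samples. The 10 bone or stromal markers overlapped, at 165 to 316 CPM in the femur and 199 to 264 CPM in the mandible. Of the 7 T or NK cell markers, Cd3e and Cd8a had no UMI in cluster 1. The 7 erythroid markers ran from 39.7 to 1189 CPM, with the highest value in mandible replicate 2. Ameloblast markers (7 genes) summed to 0 to 0.0569 CPM in the femur samples and 13.1 to 49.3 CPM in the mandible samples. The part of these transcripts in the results below was not tested.

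Between sites, 9 of 10687 tested genes passed a false discovery rate (FDR, Benjamini-Hochberg adjusted p from edgeR's quasi-likelihood test) of 0.05 in cluster 1. This was 0.0842% of the genes tested, with 7 genes higher in the mandible samples (0.0655%) and 2 lower (0.0187%). At an unadjusted p under 0.05 there were 1451 genes, 13.6% of those tested, which is the share to set beside the list counts below. Leaving out each sample in turn gave 0, 0 and 0 calls without femur replicates 1, 2 and 3, and 2, 1 and 0 without mandible replicates 1, 2 and 3; in the fits without calls edgeR gave 1145 to 1506 genes at an unadjusted p under 0.05. DESeq2 called 279 genes, 2.72% of the 10270 to which it gave an adjusted p. The split between directions moved with the scaling, from 7 higher and 2 lower to 14 higher and 23 lower without scaling factors, where the median of all genes lay 0.13 log2 units below 0, and to 9 higher and 6 lower with median-ratio factors.

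Itga4, the alpha 4 integrin chain that binds VCAM-1 and fibronectin and takes part in holding leukocytes in marrow, fell in the mandible. It had the higher CPM of the 2 genes past the threshold that fell. Its levels were 250, 292 and 332 CPM in the femur replicates and 114, 106 and 106 CPM in the mandible replicates. All 3 mandible samples lay below all 3 femur samples, and the log2 fold change was -1.28, with an SE of 0.15 and an edgeR adjusted p of 0.044. The call was lost whenever a sample was left out, with log2 fold changes from -1.38 to -1.16 and adjusted p from 0.055 to 0.30; among male samples the log2 fold change was -1.38. The share of cells with an Itga4 UMI, after thinning each cell to 1000 UMIs, averaged 22.3% in femur samples (SD 3.53, n = 3) and 9.98% in mandible samples (SD 0.433, n = 3). Over the same thinning, B cells of cluster 6, which express this integrin, had 25.3 and 18.3%. Their order turned at 2000 UMIs, with 34.4% in femur and 37.1% in mandible samples, against 33.4 and 15.7% in cluster 1. Itga4 lies at chr2:79255426-79333123 (mm10, plus strand) and its gene model overlaps that of Cerkl.

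Nlrp1b, an inflammasome sensor, was the other gene that fell, from 37.9, 43.0 and 49.7 CPM to 18.3, 15.9 and 18.2 CPM (log2 fold change -1.18, SE 0.16, edgeR adjusted p = 0.049). It lies at chr11:71153102-71230733 (mm10, minus strand). It is one of a set of closely similar Nlrp1 copies, among which reads may be divided in counting.

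Amelx and Ambn, which encode the enamel proteins amelogenin and ameloblastin, led the genes that rose. Amelx had 0 UMIs over the 3 femur samples and 804 over the 3 mandible samples, with 44.2, 10.1 and 35.0 CPM in the mandible replicates. Taken as it stood, its mandible level was 636-fold a floor of 3 counts over the femur group (edgeR adjusted p = 0.044). The lower limit of the 95% exact interval of the ratio, which covers the counting error of both groups, was 516. Ambn had 1 UMI in the femur and 71 in the mandible, a ratio of 168 (95% exact interval 29.3 to 6745, counting error only; edgeR adjusted p = 0.044). These transcripts were not confined to cluster 1: Amelx stood at 33.2, 1.95 and 55.6 CPM in the B cells of cluster 6 and at 0 CPM there in every femur sample. The part of free RNA in these values was not tested. Col1a1, the main collagen chain of bone, rose from 1.92, 2.16 and 1.77 CPM to 5.52, 7.96 and 6.15 CPM (log2 fold change 1.88, SE 0.26, edgeR adjusted p = 0.049). It was the single edgeR call among 7 tested bone or stromal markers, whose summed level overlapped between sites, and DESeq2 called 3 of them higher and 1, the stromal chemokine Cxcl12, lower.

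The remaining genes that rose were Igsf5, an immunoglobulin superfamily membrane protein, and 3 non-coding genes. Igsf5 went from 1.37, 2.22 and 2.00 CPM to 6.75, 10.2 and 6.75 CPM (log2 fold change 2.21, SE 0.29, edgeR adjusted p = 0.049). Gm11476, a processed transcript whose model overlaps Ube2v1, went from 61.0, 55.3 and 58.5 CPM to 121, 100.1 and 102 CPM. Gm26797 and Gm31925, both annotated as long intergenic RNAs, had log2 fold changes of 1.21 (SE 0.15) and 1.29 (SE 0.17). In each of these 4 genes all mandible samples lay above all femur samples. Across all tested genes, 4.88% had every mandible sample above every femur sample and 16.9% had every mandible sample below. Overlap was judged on CPM without scaling factors, while the log2 fold changes used them. At an unadjusted p under 0.05, edgeR gave 752 genes higher and 699 lower with factors, and 396 and 1279 without.

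**Figure D2:**
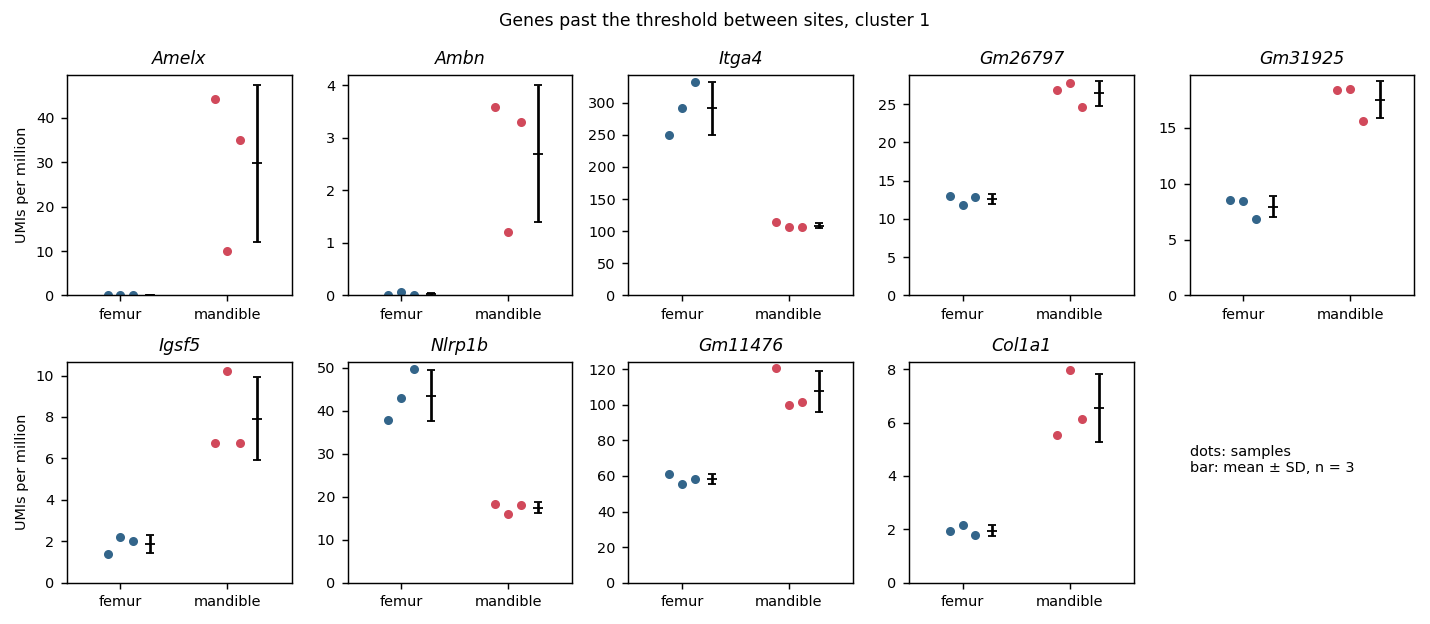
CPM of the 9 genes past the threshold, by site, in cluster 1, with a point per sample and the mean ± SD (n = 3) beside them; each vertical axis starts at 0. Itga4 and Nlrp1b sit lower in all 3 mandible samples and the other 7 genes higher, with Amelx at 0 in the femur.

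None of the 5 given markers passed the threshold between sites by edgeR, 2 had an unadjusted p under 0.05, and DESeq2 called 1, Il1b (DESeq2 adjusted p = 0.034). Il1b stood at 3351, 1987 and 2174 CPM in the femur replicates and 1450, 1393 and 1060 CPM in the mandible replicates. All 3 mandible samples were below all 3 femur samples, a pattern that 16.9% of all tested genes had. The spread was wide, with the female femur sample highest (log2 fold change -0.81, SE 0.25, edgeR adjusted p = 0.21). Without that sample the log2 fold change was -0.54 and the adjusted p 0.32. After thinning to 1000 UMIs, Il1b was detected in 77.0, 67.1 and 71.4% of femur cells and 52.7, 53.2 and 44.8% of mandible cells. In the B cells of cluster 6, which should lack Il1b, the thinned shares were 0 to 10.0%. As counted, Il1b was found in 89.6% of femur cells and 71.4% of mandible cells of cluster 1, against 19.1 and 6.5% of cluster 6 cells, at median depths of 3827 to 6154 and 3104 to 5541 UMIs. The median cell held 3, 1 and 2 Il1b UMIs per 1000 in the femur replicates and 1, 1 and 0 in the mandible replicates.

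Csf3r stood at 3020, 3538 and 2869 CPM against 2302, 1792 and 2433 CPM, also without overlap (log2 fold change -0.39, SE 0.16, edgeR adjusted p = 0.34). Il1r2 overlapped between sites, with 3784, 1974 and 1401 CPM against 2411, 1929 and 1280 CPM, and its direction turned when femur replicate 1 was left out (log2 fold change -0.21 with it and 0.31 without). Il1bos, an antisense gene that overlaps Il1b on the other strand, lay just outside the threshold, at 32.7, 22.4 and 32.2 CPM against 9.73, 7.21 and 5.10 CPM (log2 fold change -1.83, edgeR adjusted p = 0.056). Il1b lies on the minus strand and Il1bos on the plus strand, and counts were made with Cell Ranger from 3' libraries. How far reads of one gene were counted for the other was not tested.

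Of the 15 tested genes of the interleukin-1 system and inflammasome list, which does not hold Nlrp1b, 0 passed the threshold by edgeR and 3 had an unadjusted p under 0.05, all with lower means in the mandible; DESeq2 called 1. Their median log2 fold change was -0.07, beside 0.0035 over all genes tested, and it turned to 0.06 without femur replicate 1 and became -0.22 without scaling factors. Aim2, a cytosolic DNA sensor, was at 87.4, 111 and 96.0 CPM in the femur and 78.4, 51.4 and 59.4 CPM in the mandible (edgeR adjusted p = 0.24).

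Secondary granule genes had the largest list median, with higher mandible means in 8 of 8 genes. Of these 8 genes 0 passed the threshold by edgeR, DESeq2 called 1, 6 had an unadjusted p under 0.05, and the median log2 fold change was 1.15. Ltf, lactoferrin, was at 467, 242 and 586 CPM in the femur and 717, 1945 and 770 CPM in the mandible (edgeR adjusted p = 0.20). Ngp, neutrophilic granule protein, was at 1365, 647 and 1754 CPM against 2151, 5180 and 2535 CPM (edgeR adjusted p = 0.19). In both genes mandible replicate 2 stood far above the rest, and without it the list median fell to 0.55. Cybb, the catalytic chain of the NADPH oxidase, was more even, at 291, 214 and 185 CPM against 430, 578 and 473 CPM (log2 fold change 1.24, SE 0.21, edgeR adjusted p = 0.073).

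Ltf and Ngp were also present in cells that should lack them. In the B cells of cluster 6, Ltf stood at 653 to 2498 CPM, and its thinned share of cells averaged 24.9% in femur samples and 17.8% in mandible samples, against 21.9 and 19.7% in cluster 1. These shares in cluster 1 are at about the background, so they are not read as expression. As counted, Ltf was found in 62.9% of femur cells and 48.0% of mandible cells of cluster 1 and Ngp in 91.7 and 83.4%, against the direction of their CPM, and no order is read from them. The part of free RNA in the granule values was not tested.

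Among 7 gelatinase granule genes, 0 passed the threshold by edgeR, 4 had an unadjusted p under 0.05, DESeq2 called 3, and the median log2 fold change of 0.40 became 0.26 without scaling factors. Mmp8, neutrophil collagenase, was at 2029, 1421 and 1257 CPM in the femur and 2738, 2972 and 2250 CPM in the mandible (edgeR adjusted p = 0.15). Cd177, a neutrophil surface antigen, was at 207, 129 and 182 CPM against 265, 372 and 324 CPM (edgeR adjusted p = 0.12). Retnlg, a resistin-like secreted protein among the most abundant mRNAs of the cluster, was at 12837, 12697 and 14862 CPM against 19185, 20086 and 18465 CPM (log2 fold change 0.65, SE 0.20, edgeR adjusted p = 0.21). In these 3 genes, of which Retnlg is not on the gelatinase granule list, every mandible sample lay above every femur sample. Of all tested genes, 4.88% had that pattern.

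Interferon-inducible genes leaned the other way. Of 39 tested members 0 passed the threshold by edgeR and 1 by DESeq2, 36 had a negative log2 fold change, 12 had an unadjusted p under 0.05, and 21 had every mandible sample below every femur sample, a pattern that 16.9% of all tested genes had. The median was -0.33, and it was -0.34 with median-ratio factors and -0.48 without factors. Within the subclusters at finer resolution described below, the medians were -0.22 (39 tested) and -0.27 (36 tested) in subclusters 0 and 1. Isg15 was at 119, 184 and 323 CPM in the femur and 124, 99.8 and 124 CPM in the mandible, which overlap (edgeR adjusted p = 0.36). Slfn5, a Schlafen family member, was at 180, 238 and 297 CPM against 140, 132 and 105 CPM (edgeR adjusted p = 0.17).

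The 13 mitochondrially encoded genes had a median log2 fold change of 0.47, with 0 called by edgeR, 2 by DESeq2 and 7 at an unadjusted p under 0.05. The nearest to the threshold was mt-Cytb, cytochrome b of complex III, at 378, 318 and 302 CPM against 574, 523 and 591 CPM (log2 fold change 0.89, SE 0.14, edgeR adjusted p = 0.065). The 77 nuclear genes of oxidative phosphorylation had a median of 0.18, which became 0.06 without scaling factors, 0.07 without femur replicate 1 and 0.09 without mandible replicate 2, with 0 calls by edgeR or DESeq2 and 4 genes at an unadjusted p under 0.05. The 76 ribosomal protein genes had a median of 0.02, with 0 calls by edgeR or DESeq2 and 0 genes at an unadjusted p under 0.05, and the sign of that median turned without scaling factors, at -0.11, without femur replicate 1, at -0.15, and without mandible replicate 2, at -0.04.

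Among 21 tested genes of retention, egress and adhesion, edgeR called 1, Itga4, and DESeq2 called 1 higher and 2 lower. Cxcr2, the chemokine receptor that drives release from the marrow, was at 1558, 1660 and 1608 CPM in the femur and 1428, 1299 and 1307 CPM in the mandible (log2 fold change -0.12, edgeR adjusted p = 0.78). Of 26 cytokine receptor genes, 0 were called by edgeR or DESeq2, 8 had an unadjusted p under 0.05 with lower means in the mandible and 1 with a higher mean, and the median of -0.19 became -0.32 without scaling factors. Of 17 Fc and paired immune receptor genes, edgeR called 0, 5 had an unadjusted p under 0.05 with lower means in the mandible, and DESeq2 called 3 lower. Sirpb1c, a paired immune receptor with near-identical paralogs among which reads may be split, was at 133, 156 and 155 CPM against 84.5, 62.7 and 68.0 CPM (edgeR adjusted p = 0.065).

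Of 21 genes of NF-kB subunits and feedback 0 passed by edgeR and 2 by DESeq2, 3 had an unadjusted p under 0.05, about the share of all genes, and the median of 0.14 became 0.0028 without scaling factors. Nfkbia, the inhibitor that holds NF-kB in the cytoplasm, was tightly grouped, at 159, 168 and 159 CPM in the femur and 237, 238 and 236 CPM in the mandible (log2 fold change 0.69, SE 0.12, edgeR adjusted p = 0.078). Nfkbiz, a regulator of NF-kB signalling, was at 805, 1028 and 458 CPM against 1234, 855 and 1059 CPM, which overlap (edgeR adjusted p = 0.34). Of 25 immediate early genes 0 passed by edgeR and 3 by DESeq2 (2 higher, 1 lower), and the median of 0.25 became 0.11 without scaling factors. Fosl1, an AP-1 subunit, had the highest log2 fold change among them, 1.99, at 15.2, 9.39 and 7.20 CPM against 40.2, 49.6 and 22.8 CPM (edgeR adjusted p = 0.078).

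**Figure D3:**
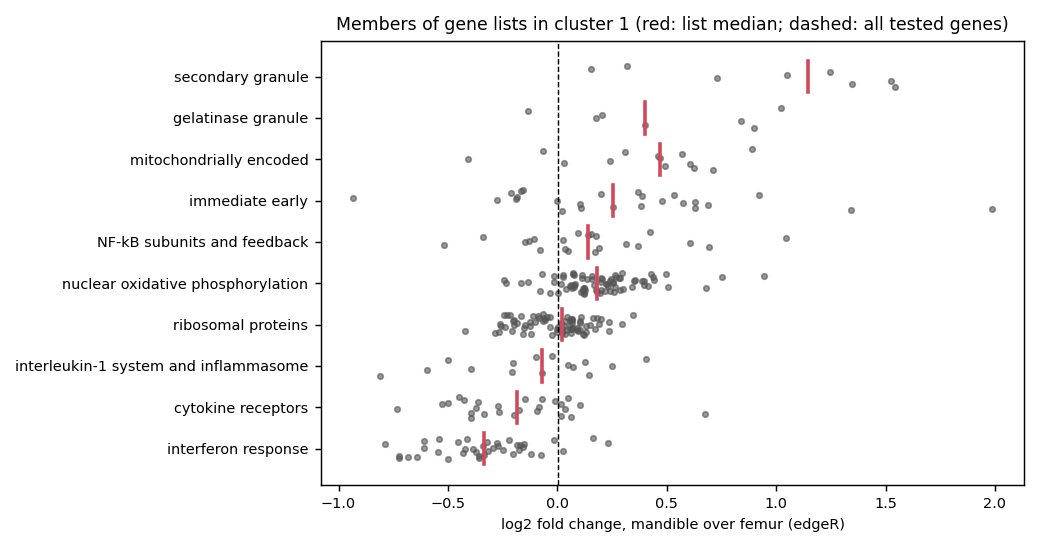
Log2 fold change (mandible over femur, edgeR) of each tested member of 10 gene lists in cluster 1, with a grey point per gene, a red bar at the list median and a dashed line at the median of all tested genes, 0.0035. Secondary granule genes lie furthest right, with a median of 1.15, and interferon response genes furthest left, with a median of -0.33.

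Whether the difference between sites in cluster 1 differed from that in the neighbouring neutrophil clusters was tested with limma on each sample's difference in log2 CPM between clusters. Against cluster 2, 161 of 9580 genes (1.68%) passed an FDR of 0.05, 151 of them with a more positive site effect in cluster 1. Il1b was among them: its site effect was -0.79 in cluster 1 and -1.24 in cluster 2, a difference of 0.45 (SE 0.07, limma adjusted p = 0.0060). Clusters were drawn from the expression of genes such as Il1b, and such sorting may itself shift a site effect. That was not tested. Cd177 had site effects of 1.04 and 0.57 (difference 0.47, SE 0.06, limma adjusted p = 0.0042). Plac8, a small cysteine-rich protein of myeloid cells, went the other way, with -0.23 in cluster 1 and 0.50 in cluster 2 (difference -0.73, SE 0.10, limma adjusted p = 0.0042). Itga4 had -1.28 in cluster 1 and -1.17 in cluster 2 and was not called (difference -0.11, SE 0.08, limma adjusted p = 0.61). Leaving out a sample gave 25 to 142 calls, the lowest without femur replicate 3, and also 35, 76 and 31 without femur replicate 2 and mandible replicates 1 and 3.

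Against cluster 3, 254 of 9172 genes (2.77%) passed, 214 of them more positive in cluster 1. The granule lists contributed 4 of 8 secondary and 3 of 7 gelatinase granule genes, all more positive in cluster 1. Ltf, whose shares in cluster 1 were at about the background, was among them (difference 1.01, limma adjusted p = 0.026). Its adjusted p rose to as much as 0.13 when a sample was left out. These clusters too were drawn from expression, which may itself shift a site effect, and that was not tested. Ngp had site effects of 1.51 in cluster 1 and 0.40 in cluster 3 (difference 1.11, SE 0.16, limma adjusted p = 0.0036). The Ngp difference was 0.87 to 1.27 when a sample was left out. Its thinned share of cells averaged 48.8% in femur and 47.4% in mandible samples of cluster 1, against 39.4 and 32.6% in B cells of cluster 6. The part of free RNA in this difference was not tested. Cybb had site effects of 1.23 and 0.22 (difference 1.01, SE 0.12, limma adjusted p = 0.0018). Here Itga4 was more negative in cluster 1, at -1.30 against -0.31 (difference -0.99, SE 0.15, limma adjusted p = 0.0040). Egr1, an immediate early transcription factor, had site effects of 0.85 and 1.81 (difference -0.96, limma adjusted p = 0.0098), a call that was lost without mandible replicate 1 or 3 (adjusted p = 0.059 and 0.051). Leaving out a sample gave 60 to 356 calls, with 77, 127, 60 and 82 without femur replicate 3 and mandible replicates 1, 2 and 3.

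**Figure D4:**
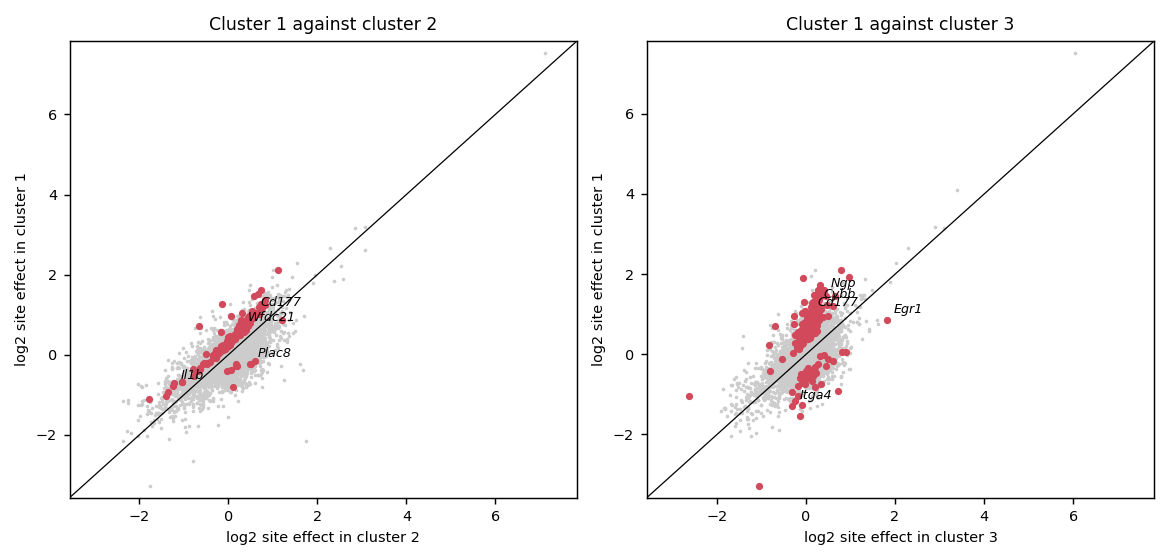
Log2 site effect (mandible minus femur, mean log2 CPM) of each gene in cluster 1 (vertical axes) against cluster 2 (left) and cluster 3 (right), with the line of equality and the genes past the threshold for a difference, 161 and 254, in red. Most red points lie above the line, and Itga4 lies below it against cluster 3.

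At resolution 0.5 the deposited clustering divided cluster 1 into subcluster 0 with 7682 cells, subcluster 1 with 7732, subcluster 19 with 207 and others with 203. Subcluster 0 took 44.0, 46.5 and 56.5% of cluster 1 in the femur replicates and 41.5, 43.9 and 40.9% in the mandible replicates. These subclusters were taken up after the values had been seen. As a description, all 39 tested interferon response genes were higher in subcluster 0 than in subcluster 1 in 6 of 6 samples, with a median log2 ratio of 1.47. Many other genes were too: of all 10687 genes tested between sites 42.1% were higher in subcluster 0 in 6 of 6 samples and 6.04% in subcluster 1, and the median log2 ratio was 0.28. Ribosomal protein genes were higher in subcluster 0 in 70 of 76 cases, with a median of 0.41, and cytokine and chemokine ligands in 9 of 16, with a median of 0.27. Ifit3, an interferon-induced antiviral protein, averaged 124 CPM in subcluster 0 and 5.68 CPM in subcluster 1, Isg15 298 and 50.2 CPM, and Rsad2 506 and 88.5 CPM. Csf1, the macrophage growth factor, averaged 154 and 10.8 CPM, Itga4 367 and 60.9 CPM, and Il1b 3162 and 919 CPM. Subcluster 1 was higher in Retnlg (22415 against 9175 CPM), Lyz2 (lysozyme, 4945 against 2854 CPM) and Mmp8 (2565 against 1509 CPM), again in 6 of 6 samples.

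The promoters of 3 of these interferon-inducible genes are shown because they carry the interferon-stimulated response element, the site bound by interferon regulatory and STAT factors. The 250 bases before each start are from RefSeq on GRCm38.p6, on the gene's strand, 5' to 3': Isg15 at chr4:156200819-156201068 (minus strand), Ifit3 at chr19:34583279-34583528 (plus strand) and Rsad2 at chr12:26456453-26456702 (minus strand). Capitals mark matches, on either strand, to GAAA followed by any 2 bases and GAAA again, where matches in Isg15 overlap each other.
Isg15: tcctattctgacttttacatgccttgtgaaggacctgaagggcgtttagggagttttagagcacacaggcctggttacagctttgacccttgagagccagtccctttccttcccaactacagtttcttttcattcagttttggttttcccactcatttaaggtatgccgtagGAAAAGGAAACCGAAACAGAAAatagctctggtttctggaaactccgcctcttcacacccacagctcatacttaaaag
Ifit3: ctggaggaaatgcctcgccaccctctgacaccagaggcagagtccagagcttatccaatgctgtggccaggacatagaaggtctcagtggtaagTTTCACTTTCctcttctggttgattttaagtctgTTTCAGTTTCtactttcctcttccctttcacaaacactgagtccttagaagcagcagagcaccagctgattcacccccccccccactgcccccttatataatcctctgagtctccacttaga
Rsad2: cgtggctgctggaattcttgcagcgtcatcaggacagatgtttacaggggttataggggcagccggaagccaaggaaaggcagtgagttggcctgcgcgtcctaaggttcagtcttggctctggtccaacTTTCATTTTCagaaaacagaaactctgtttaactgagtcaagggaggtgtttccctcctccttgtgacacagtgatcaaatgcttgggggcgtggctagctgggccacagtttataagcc

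Isg15 held 3 matches, Ifit3 held 2 and Rsad2 held 1. Over all 32851 promoters of this length 2.98% held a match, and 13 of the 31 interferon response genes with a RefSeq promoter did (41.9%). The 16 promoters found for the interleukin-1 list, Il1b included, held 0. A match describes letters in this window and says nothing of binding in these cells.

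Within subcluster 0, 40 of 9382 genes (0.426%) passed between sites by edgeR, 32 higher in the mandible and 8 lower. Without scaling factors the split was 39 higher and 47 lower. Itga4 fell there from 485, 538 and 539 CPM to 219, 204 and 216 CPM (log2 fold change -1.14, SE 0.14, edgeR adjusted p = 0.021). Nfkbia rose from 210, 209 and 189 CPM to 356, 325 and 363 CPM (log2 fold change 0.92, SE 0.14, edgeR adjusted p = 0.024). Cybb rose from 250, 145 and 161 CPM to 397, 687 and 464 CPM (log2 fold change 1.63, SE 0.27, edgeR adjusted p = 0.036), and Mmp8 from 1227, 908 and 718 CPM to 2141, 2315 and 1744 CPM (log2 fold change 1.27, SE 0.23, edgeR adjusted p = 0.048). Amelx was also called, with 0 CPM in the femur samples. When a sample was left out, edgeR's adjusted p rose to as much as 0.18 for Nfkbia, 0.21 for Cybb, 0.26 for Mmp8 and 0.12 for Amelx. Leaving out a sample gave 21, 18 and 2 calls without femur replicates 1, 2 and 3 and 47, 1 and 0 without mandible replicates 1, 2 and 3, the last with 1016 genes at an unadjusted p under 0.05; Itga4 kept its call except without mandible replicate 2 or 3.

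Within subcluster 1, 2 of 9108 genes (0.022%) passed, Amelx and mt-Cytb. The latter rose from 224, 241 and 181 CPM to 468, 416 and 457 CPM (log2 fold change 1.13, SE 0.13, edgeR adjusted p = 0.027). Its call was lost whichever sample was left out, with log2 fold changes of 1.08 to 1.17 and adjusted p of 0.058 to 0.21. Leaving out a sample gave 0 calls without femur replicates 1 or 3 or mandible replicate 3 (860, 1071 and 728 genes at an unadjusted p under 0.05), 1 without mandible replicate 1 or 2, and 4 without femur replicate 2.

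The site effect differed between these subclusters for 69 of 8858 genes (0.779%), 59 of them more positive in subcluster 0. Subclusters were drawn from expression too, and differed in genes such as Il1b, Retnlg and Lyz2. Such sorting may itself shift a site effect, which was not tested. Il1b had a site effect of -0.49 in subcluster 0 and -1.16 in subcluster 1 (difference 0.68, SE 0.07, limma adjusted p = 0.00043). The difference was 0.58 to 0.73 when a sample was left out, while the log2 fold change within subcluster 0 by edgeR went from -0.54 to -0.22 (adjusted p from 0.39 to 0.74) without femur replicate 1. Il1b levels were 5310, 3142 and 3226 CPM against 2730, 2477 and 2087 CPM in subcluster 0, and 1804, 1080 and 1004 CPM against 634, 587 and 405 CPM in subcluster 1. Retnlg had site effects of 1.01 and 0.41 (difference 0.60, SE 0.08), and Lyz2 of 0.93 and 0.28 (difference 0.65, SE 0.07). Itga4 had -1.13 and -1.20, a difference of 0.07 (SE 0.14, limma adjusted p = 0.92). Leaving out a sample gave 9 to 72 calls, with 26, 9, 13 and 31 without femur replicates 1 and 3 and mandible replicates 1 and 3.

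**Figure D5:**
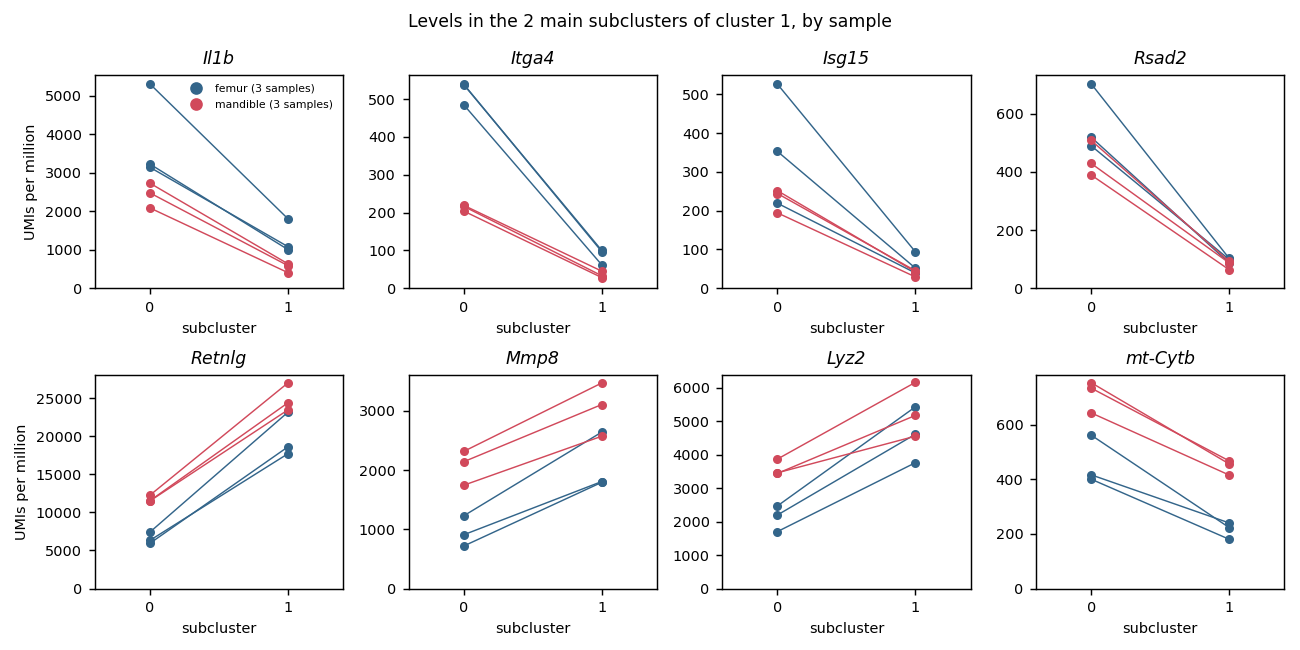
CPM of 8 genes in subclusters 0 and 1 of cluster 1 (horizontal axes), with a line per sample, femur in blue and mandible in red; vertical axes start at 0. Il1b, Itga4, Isg15, Rsad2 and mt-Cytb are higher in subcluster 0 and Retnlg, Mmp8 and Lyz2 in subcluster 1 in every sample.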

How the data were processed

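CD11b+ marrow cells of 3 femur and 3 mandible samples were profiled. The authors made raw UMI counts per gene and cell with Cell Ranger (7.0.1 in the submitters' notes, 7.1.0 in the matrix headers; build mm10). The deposited cell table held the clusters and the percent of mitochondrial counts per cell; kept cells had 601 to 5999 genes and at most 19.8%. How doublets were treated was not given in the sources used here, and no caller was run. The authors' marker statistics were not used. Counts were summed per sample and cluster (6654475 to 26521651 UMIs in cluster 1). Sites were compared with edgeR 4.0.16 (filterByExpr, TMM factors, quasi-likelihood test), and site effects between clusters with limma 3.58.1 on log2 CPM (prior count 2); DESeq2 1.42.0 was an alternative. Scripts were tested on simulated data. Members and gene lists were chosen with earlier results of these data known. Genes were named as markers, study genes, those past FDR 0.05, the 8 largest non-overlapping changes per direction at 10 CPM or more, list members by level (4) or p (3), the 5 lowest p per difference test, and the 15 highest ratios to other clusters; others were chosen after their values were seen. Of the gene IDs, 99.8% matched the mm10 annotation. Intervals and floors cover counting error only.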

Additional observations from a re-analysis of the deposited data

Results flagged for a closer look

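Effects of skeletal site that differed between cell groups, by limma on per-sample differences, are listed here as values. Comparisons with clusters 2 and 3 share cluster 1. The groups were drawn from expression, which may itself shift the site effects of genes that separate them, and this was not tested. Against cluster 2, 161 genes passed, and the 5 with the lowest p had differences of site effects of 0.47 (Cd177), 0.58 (1700047M11Rik), -0.73 (Plac8), 0.37 (Wfdc21) and 0.34 (Ddx60). Against cluster 3, 254 genes passed, led by differences of 0.92 (Cd177), 0.95 (1700047M11Rik), 1.01 (Cybb), 1.98 (Gm33326) and 1.07 (Adpgk, an ADP-dependent glucokinase). Between subclusters 0 and 1, 69 genes passed, led by 0.68 (Il1b), 0.65 (Lyz2), 0.59 (Wfdc21), 0.60 (Retnlg) and 0.67 (Mmp8, whose adjusted p was 0.054 without mandible replicate 1). Groups of 3 samples were too small for a test of single outlying samples.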

How the results depend on the processing

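The number of genes called between sites in cluster 1 depended on the processing, and none of the 9 calls held under all 17 alternatives. The 9 calls (7 higher, 2 lower) became 15 with 6 lower under median-ratio factors, 16 with 6 lower under limma-trend, 279 (163 and 116) with DESeq2, 37 (14 and 23) without scaling factors and 577 (281 and 296) without a filter on low counts. They became 5 (4 and 1) with cells of 2000 to 15000 UMIs and 0 with cells in G1, where edgeR gave 1439 genes at an unadjusted p under 0.05. Leaving out a sample gave 0 to 2 calls, 0 to 1 higher and 0 to 1 lower. In subcluster 0 the 40 calls (32 higher, 8 lower) became 221 (165 and 56) with DESeq2 and 86 (39 and 47) without factors. They became 444 (250 and 194) without a filter, and 0 to 47 without a sample. In subcluster 1 the 2 calls became 70 with DESeq2 and 265 without a filter, and 0 to 4 without a sample. Of the main calls in subclusters 0 and 1, 0 of 40 and 0 of 2 held under every one of 13 alternatives that tested them. Calls for differing site effects ran from 25 to 142 (cluster 2), 60 to 356 (cluster 3) and 9 to 72 (subclusters) when a sample was left out. Those held under every one of 10 alternatives that tested them were 17 of 161 (cluster 2), 55 of 254 (cluster 3) and 6 of 69 (subclusters). The alternatives in the subclusters and the unblocked fit of 4 samples were chosen after seeing the data.

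Same-numbered samples were not paired in the main fits. The correlations of their deviations were -0.02, -0.38 and 0.18 for the title numbers. For the pairs that share a library number, whose meaning the labels do not give, they were 0.50 and 0.29. All femur and mandible pairs without a shared library number ran from -0.44 to 0.18. With the title number as a replicate block, the counts were 1 (1 and 0) in cluster 1, 24 for cluster 2, 226 for cluster 3, 1 and 3 in subclusters 0 and 1 and 102 between subclusters. With the library number as a replicate block on 4 samples, they were 1587 (984 and 603) in cluster 1, 569 for cluster 3, 1224 and 815 in subclusters 0 and 1 and 158 between subclusters; for cluster 2 the count was 161. Without the block, edgeR on the same 4 samples was run for cluster 1 between sites, and gave 0 calls and 1139 genes at an unadjusted p under 0.05. The library-number block left 1 residual degree of freedom per gene.

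Of 97 values checked, list medians aside, Il1r2 between sites was the one that turned. Its log2 fold change was 0.55 with the library-number block, 0.54 for the same 4 samples without it, and -0.48 to 0.31 without a sample. The cause was not tested. Several list medians also turned without scaling factors, among them primary granule genes (0.12 to -0.01) and cytokine and chemokine ligands (0.06 to -0.09). Low counts limit the enamel genes and cluster 6, which held 39 to 394 cells per sample.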
